A study of Mus musculus with 18 samples.

Results

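RNA from Treg (regulatory T cells, CD4+ cells that carry the transcription factor Foxp3) labelled Mef2d deletion was compared directly with RNA from Treg labelled Mef2c deletion. The comparison takes 3 libraries per label, 6 of the 18 in the series, and wild-type libraries enter only as levels for reference. The mice were males aged 6 to 8 weeks that carried a floxed Mef2c or a floxed Mef2d gene together with Foxp3-YFP-cre, an allele from which Foxp3-expressing cells produce Cre recombinase and a yellow fluorescent protein. Every group shared that cre allele: the wild type carried it alone, and the remaining groups carried floxed HDAC1, HDAC2 or Dyrk1 genes. CD4+ cells, taken over a column, were sorted by their fluorescence, and the series describes the 3 samples of each group as independent biological replicates. The protocol also speaks of a knockout of Rcor1, a gene that no sample label carries.

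MEF2 proteins (MEF2A, B, C and D) are DNA-binding transcription factors that recognise the same AT-rich motif. Class IIa histone deacetylases such as HDAC4, HDAC5, HDAC7 and HDAC9 bind them and hold their targets down, and calcium signals through calcineurin and the CaM kinases release that hold. In T cells MEF2 factors are known for their part in the response to the antigen receptor, and Mef2d has been studied for the function of Foxp3+ Treg. The direct comparison asks how Treg RNA differs between cells labelled for loss of one family member and cells labelled for loss of another.

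Levels are given as FPKM, in which read fragments are divided by the length of the gene and the depth of the library. A difference is Mef2d minus Mef2c on the log2(FPKM + 1) scale, so a positive value means higher in Mef2d-labelled libraries, and it understates the change of low genes. A gene was called, or passed, at a Benjamini-Hochberg adjusted p-value of limma under 0.05. Depth was 18270000 to 20640000 reads in the Mef2c-labelled libraries and 15920000 to 22550000 reads in the Mef2d-labelled ones. The 8 markers of T cells and Treg summed to 1524 to 1657 FPKM in Mef2c-labelled and 1459 to 1499 FPKM in Mef2d-labelled libraries. The 16 B cell markers summed to 280.7 to 552.3 and 220.4 to 723.4 FPKM, and none of the 14 tested passed (limma; 0 at an unadjusted p under 0.05). Dyrk1 replicate 1 held 1785 FPKM of the same markers. That library serves here in the estimate of spread, in the range of the 9 HDAC1-, HDAC2- and Dyrk1-labelled libraries and in the Dyrk1-labelled means.

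The targeted genes did not separate the labels. Mef2d (chromosome 3, 88142372 to 88172086, mm10) was at 49.3, 47.6 and 48.3 FPKM in Mef2c-labelled libraries and at 53.4, 53.9 and 52.8 in Mef2d-labelled ones. The Mef2d-labelled libraries were thus the higher ones, without overlap, but the difference of 0.14 (SE 0.07) did not pass (adjusted p 0.441). Mef2c (chromosome 13, 83504034 to 83667080, mm10) was low throughout, at 1.95, 0.903 and 0.945 FPKM against 2.81, 0.772 and 1.12, with overlapping groups (0.13, SE 0.55, adjusted p 0.972). Values count reads over whole genes, including exons outside a floxed segment, so they do not measure the loss of an exon. The labels therefore stand unchecked by the target genes, and the groups are called by their labels throughout.

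Of 21 tested genes of the MEF2 family, the class IIa deacetylases and their regulators, 1 passed, beside 2.92% of all genes tested, and 6 were at an unadjusted p under 0.05 (28.6%, beside 12.9% of all genes). Mef2a averaged 13.2 ± 0.926 FPKM (SD, n = 3) in Mef2c-labelled and 15.5 ± 0.724 in Mef2d-labelled libraries (0.22, SE 0.07, adjusted p 0.195). Mef2b was below 0.07 FPKM in all 6 libraries and was not tested. Among the class IIa deacetylases, Hdac7 was at 80.3 ± 4.90 against 91.4 ± 2.48 FPKM (adjusted p 0.181), Hdac4 at 7.18 ± 0.465 against 7.69 ± 0.995 (adjusted p 0.859) and Hdac5 at 10.8 ± 0.126 against 11.1 ± 0.524 (adjusted p 0.909). Hdac9 was at 2.04, 2.29 and 2.04 FPKM against 1.33, 0.867 and 0.955, groups that did not overlap (-0.61, SE 0.20, adjusted p 0.151). Without Dyrk1 replicate 1 in the estimate of spread, Hdac9 passed at the same difference (adjusted p 0.00613). Camk4, a calcium-dependent kinase that acts upstream of class IIa deacetylases, was the member that passed. It was at 8.70, 8.64 and 8.11 FPKM in Mef2c-labelled and 12.7, 14.6 and 13.0 in Mef2d-labelled libraries (0.61, SE 0.11, adjusted p 0.00614), with the Mef2c-labelled libraries also below all 9 HDAC1-, HDAC2- and Dyrk1-labelled ones.

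Of 21 tested genes listed as MEF2 targets, 0 passed (limma; 6 at an unadjusted p under 0.05, again 28.6%), and their median difference was -0.04 beside -0.01 for all genes. The 6 were Nr4a1, Nr4a2, Egr1, Klf2, Bcl6 and Hdac9, of which 3 were higher in each group. Ldha, the lactate dehydrogenase A subunit, was at 338 ± 25.6 against 325 ± 7.04 FPKM (adjusted p 0.876), and Ctla4, a checkpoint receptor of Treg, at 201 ± 40.4 against 163 ± 29.7 (adjusted p 0.691). Foxp3 itself averaged 103 ± 8.04 and 115 ± 2.73 FPKM (adjusted p 0.622).

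Across all 11591 genes tested, 338 passed (2.92%): 164 were higher in Mef2d-labelled libraries (1.41%) and 174 higher in Mef2c-labelled libraries (1.5%). The median size of the called differences was 0.67, and 93 of the 338 reached 2-fold. In all 338 the 3 libraries of one group lay apart from the 3 of the other, as they did in 2203 of the genes tested (19.0%). When Mef2d replicate 2 was left out, 212 genes passed, and when the 6 libraries were fitted without the other deletion groups 261 did, of which 224 were among the 338.

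**Figure D1:**
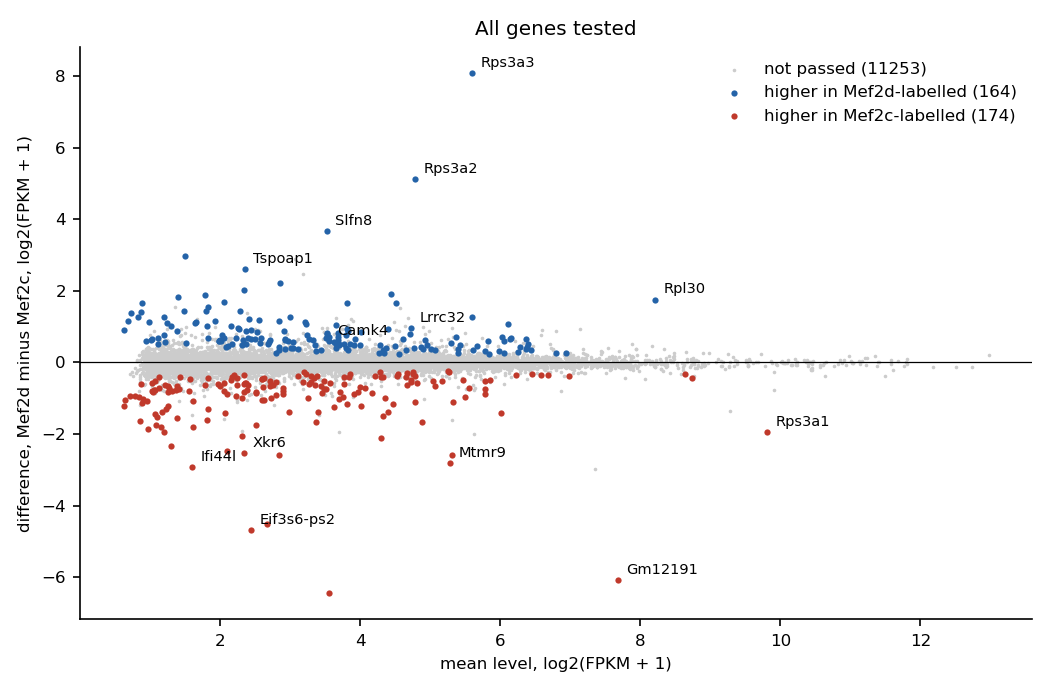
Difference between Mef2d-labelled and Mef2c-labelled libraries (y axis, log2(FPKM + 1)) against mean level (x axis, log2(FPKM + 1)) for the 11591 genes tested. Each point is a gene; 164 blue points passed with higher levels in Mef2d-labelled and 174 red points with higher levels in Mef2c-labelled libraries, and Rps3a3, a copy of a ribosomal protein gene, lies highest.

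The genes with the largest increase in Mef2d-labelled libraries for which no near-identical copy was found were led by Slfn8. This Schlafen family member is linked to lymphocyte quiescence and interferon responses. It was read at 3.00, 1.87 and 1.79 FPKM in Mef2c-labelled and at 44.4, 36.7 and 38.3 FPKM in Mef2d-labelled libraries, 17.9 times apart in the mean (3.68, SE 0.13, adjusted p 2.39e-09). The HDAC1-, HDAC2- and Dyrk1-labelled libraries held 31.6 to 45.8 FPKM and wild type 22.96 to 29.9, so the Mef2c-labelled libraries were the low ones. Tspoap1, a scaffold protein of the peripheral benzodiazepine receptor, followed the same order at 1.32, 0.776 and 1.02 FPKM against 15.8, 10.4 and 8.98 (2.61, SE 0.24, adjusted p 2.42e-05). Its level differed more among the remaining groups, from 2.40 FPKM in a wild-type library to 15.98 in one of the 9 libraries.

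Pbx4, a homeodomain transcription factor, stood at 1.07 ± 0.222 against 5.04 ± 0.767 FPKM (adjusted p 5.75e-05). Ppp1r3e, a glycogen-targeting subunit of protein phosphatase 1, stood at 1.97 ± 0.599 against 6.91 ± 0.837 FPKM (adjusted p 0.000101). Polr2k, a small subunit shared by the RNA polymerases, stood at 7.01 ± 2.45 against 23.4 ± 1.01 FPKM (adjusted p 0.00224), and it shares a stretch of 174 bases with Gm14567, to which reads could be split. Colq, a collagen that anchors acetylcholinesterase, stood at 2.40 ± 0.427 against 5.64 ± 0.704 FPKM (adjusted p 0.00149). In each of these 4 genes the Mef2c-labelled libraries lay below all 9 HDAC1-, HDAC2- and Dyrk1-labelled libraries, while the Mef2d-labelled ones lay among them. Ctsw, the cathepsin of cytotoxic lymphocytes, rose from 46.6 ± 5.76 to 98.6 ± 13.1 FPKM (1.06, SE 0.21, adjusted p 0.0125). Its call was lost without Mef2c replicate 2, Mef2d replicate 2 or Mef2d replicate 3 (adjusted p 0.0649, 0.0612 and 0.0597).

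Mtmr9, a catalytically inactive myotubularin, was among the genes much higher in Mef2c-labelled libraries. It was at 107, 102 and 97.4 FPKM there and at 13.6, 13.7 and 13.7 FPKM in Mef2d-labelled libraries, 7.46 times lower (-2.81, SE 0.09, adjusted p 5.69e-10). The Mef2d-labelled values fell within the 12.9 to 18.2 FPKM of the 9 other deletion libraries. Ifi44l, an interferon-induced gene, was at 8.18, 7.10 and 6.72 FPKM in Mef2c-labelled libraries and at 0, 0 and 0.307 in Mef2d-labelled ones (-2.93, SE 0.11, adjusted p 2.39e-09), and was listed at 0 in all 9 other deletion libraries. Xaf1, an interferon-induced partner of the caspase inhibitor XIAP, was at 49.1, 51.6 and 52.1 FPKM against 16.3, 12.5 and 18.1 (-1.66, SE 0.14, adjusted p 1.65e-05). In these genes the Mef2c-labelled libraries were the high ones and did not overlap any other deletion group.

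Tlcd2, a regulator of membrane phospholipid composition, averaged 9.48 ± 0.0268 against 2.12 ± 0.228 FPKM (adjusted p 3.71e-06). Podnl1, a leucine-rich repeat matrix protein, was at 32.9, 28.9 and 36.1 FPKM against 12.2, 8.89 and 11.9 (adjusted p 0.00213). H2-T10, a nonclassical MHC class I gene, averaged 102.5 ± 7.09 against 39.0 ± 13.3 FPKM (adjusted p 0.00514). Zfp868, a zinc finger gene, averaged 23.7 ± 1.81 against 9.51 ± 0.825 (adjusted p 3.50e-05). All 4 were above every HDAC1-, HDAC2- and Dyrk1-labelled library in the Mef2c-labelled group. Eno3, the muscle form of the glycolytic enzyme enolase, averaged 33.1 ± 3.53 against 12.0 ± 1.46 FPKM (adjusted p 9.18e-05), above the 9 libraries in one group and below them in the other, which ranged from 13.9 to 26.0.

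Sfxn2, a mitochondrial sideroflexin, showed the opposite arrangement. It was at 5.30, 6.16 and 5.88 FPKM in Mef2c-labelled and at 1.37, 2.00 and 1.38 in Mef2d-labelled libraries (-1.40, SE 0.10, adjusted p 3.71e-06). Here the Mef2d-labelled libraries were low beside the 5.25 to 7.28 FPKM of the 9 other deletion libraries. Counted over all 338 called genes, the Mef2c-labelled libraries alone lay beyond the range of those 9 in 171 genes and the Mef2d-labelled libraries alone in 57. Both groups lay beyond it in 19 genes and neither in 91. These 9 libraries also entered the estimate of spread, and the counts are a description without a test. How often either group lay beyond the 9 among all genes tested was not counted, so these counts have no share to be set beside.

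**Figure D2:**
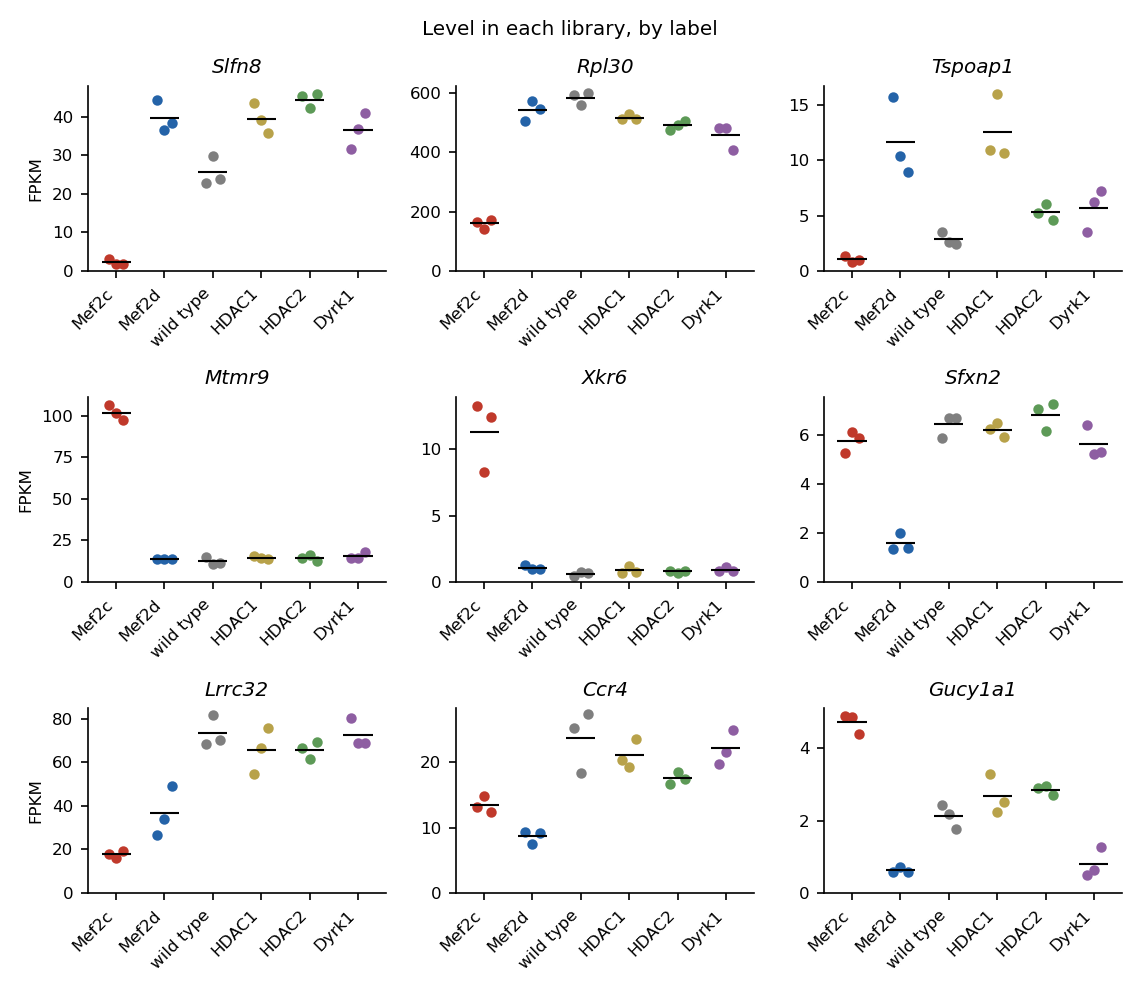
FPKM (y axis) of 9 genes in all 18 libraries, grouped by label (x axis); points are libraries and bars are means of 3. Slfn8, Rpl30 and Tspoap1 are lowest and Mtmr9 and Xkr6 highest in the Mef2c-labelled group, Sfxn2 is lowest in the Mef2d-labelled group, Lrrc32 and Ccr4 are low in both, and Gucy1a1 is low in the Mef2d-labelled and Dyrk1-labelled groups.

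Several of the largest differences were neighbours on a chromosome. On chromosome 14, Mtmr9 (63519651 to 63543982) lies beside Xkr6 (63606503 to 63820809), an XK-related membrane protein gene at 13.3, 8.27 and 12.4 FPKM in Mef2c-labelled and 1.26, 1.00 and 1.00 in Mef2d-labelled libraries (-2.54, SE 0.16, adjusted p 4.86e-07). The antisense gene Gm15918 between them was also higher in Mef2c-labelled libraries, at 3.14 ± 0.461 against 0.201 ± 0.194 FPKM, while Blk and Pinx1, the other tested genes within 0.3 Mb, did not pass. The strand setting of the counting is not given in the sources used here, so reads of Gm15918 and of the genes it overlaps cannot be told apart. On chromosome 3, Ifi44 lies next to Ifi44l and was at 5.09 ± 0.889 against 1.01 ± 0.329 FPKM (-1.60, adjusted p 9.14e-05).

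The Schlafen cluster on chromosome 11 held calls in both directions. Slfn9 (82978390 to 82991830), the gene next to Slfn8 (83002158 to 83020810), was at 19.0, 15.5 and 13.8 FPKM in Mef2c-labelled and 5.66, 5.46 and 5.23 in Mef2d-labelled libraries (-1.39, SE 0.12, adjusted p 2.16e-05). Slfn8 and Gm11425, a pseudogene nearly identical to Rpl12 that lies behind it, ran the other way. Slfn1, Slfn2, Slfn3 and Slfn5 in the same cluster did not pass, with differences of 0.02, -0.14, 0.15 and -0.43. AA465934, a noncoding transcript at the far end, was higher in Mef2c-labelled libraries at 39.9 ± 9.03 against 8.39 ± 0.978 FPKM. Of 19 genes tested in and within 0.3 Mb of the Slfn8 and Slfn9 pair, these 4 passed, beside 2.92% of all genes tested. The window was drawn around this pair because both genes passed, so their part of the count follows from that choice.

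Genes by which Treg are recognised differed in a few members. Of 23 listed, 3 were higher in Mef2d-labelled libraries, 1 was higher in Mef2c-labelled libraries and 19 did not pass, with a median difference of 0.09 beside -0.01 for all genes. Of all genes tested 1.41% and 1.5% were called in these directions. Lrrc32 encodes GARP, the surface protein that tethers latent TGF-beta on activated Treg. It was at 17.9, 16.1 and 19.1 FPKM in Mef2c-labelled and 26.8, 33.8 and 49.1 in Mef2d-labelled libraries (0.97, SE 0.17, adjusted p 0.00686). Both groups lay below the other deletion groups, which held 54.6 to 80.2 FPKM, and below wild type at 68.2 to 81.6. In the fit of the 6 libraries alone the Lrrc32 call was lost (adjusted p 0.068).

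Satb1, a chromatin organiser of the T cell lineage, was at 55.7 ± 1.30 against 69.8 ± 4.59 FPKM (0.32, SE 0.07, adjusted p 0.0224). Ikzf4, which encodes the Foxp3 partner Eos, was at 28.5 ± 1.23 against 36.7 ± 1.33 FPKM (0.35, SE 0.08, adjusted p 0.0303). Izumo1r, which encodes folate receptor 4, was at 499 ± 20.1 against 366 ± 14.5 FPKM (-0.45, SE 0.09, adjusted p 0.0128). The Ikzf4 call was lost with the replicate number as a block (adjusted p 0.0546) and the Satb1 call after removal of length and GC trends (0.23, adjusted p 0.398). Leaving out Mef2c replicate 2, Mef2c replicate 3, Mef2d replicate 1 or Mef2d replicate 2 ended the calls of Satb1 and Ikzf4, Mef2c replicate 1 that of Satb1, Mef2d replicate 3 that of Ikzf4, and Mef2c replicate 3 or Mef2d replicate 2 that of Izumo1r, with adjusted p up to 0.135. The Izumo1r call was also lost with the block and removal of length and GC trends together (adjusted p 0.0561).

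Costimulatory ligands and receptors were higher in Mef2c-labelled libraries where they passed, 3 of 17, beside 1.5% of all genes tested called in that direction. None passed the other way, and at an unadjusted p under 0.05 there were 6 higher in Mef2c-labelled and 1 higher in Mef2d-labelled libraries. Cd40lg, the ligand of CD40 on B cells and dendritic cells, was at 31.3, 29.5 and 30.9 FPKM against 23.4, 19.0 and 20.3 (-0.53, SE 0.07, adjusted p 0.000891). Cd83, an activation marker, was at 42.0 ± 0.843 against 29.0 ± 3.67 FPKM (-0.53, SE 0.08, adjusted p 0.00229). Cd86, a ligand of CD28 and CTLA-4, was at 15.5, 16.5 and 15.2 FPKM against 10.3, 9.95 and 9.63 (-0.61, SE 0.10, adjusted p 0.00317). Each of these calls held in all 21 alternative fits. Cd83 and Cd86 are also expressed by B cells and dendritic cells, whose marker sums overlapped between the groups at 95.8 to 165.5 and 70.9 to 172.6 FPKM for the 13 myeloid markers.

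Among receptors that guide or sustain T cells, Ccr4, a chemokine receptor of skin-homing and effector Treg, was at 13.1, 14.9 and 12.5 FPKM in Mef2c-labelled and 9.36, 7.48 and 9.15 in Mef2d-labelled libraries (-0.59, SE 0.11, adjusted p 0.007). Both groups lay below the 16.7 to 25.0 FPKM of the other deletion libraries. Ccr4 was 1 of 18 chemokine receptors to pass, beside 2.92% of all genes tested. With the replicate block in the 6 libraries alone Ccr4 did not pass (adjusted p 0.0849). Btla, an inhibitory receptor, was higher in Mef2d-labelled libraries at 57.03, 52.04 and 53.4 against 43.6, 40.4 and 41.6 FPKM (0.36, SE 0.06, adjusted p 0.00371), above the other deletion groups. Sh2d1a, which encodes the adaptor SAP of follicular help, was lower there at 16.1 ± 1.02 against 21.6 ± 1.57 FPKM (-0.40, SE 0.07, adjusted p 0.00784), a call also lost with the replicate block in the 6 libraries alone (adjusted p 0.0656).

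Il7r, the interleukin-7 receptor chain, was at 64.6 ± 7.26 against 44.9 ± 7.17 FPKM (-0.52, SE 0.12, adjusted p 0.0421). Cd3g, a chain of the T cell receptor complex, was at 443 ± 42.2 against 354 ± 22.6 FPKM (-0.32, SE 0.08, adjusted p 0.0391). The Cd3g call was lost with the replicate block (adjusted p 0.0761). Both calls were lost without Mef2c replicate 2 or 3 or Mef2d replicate 2, that of Cd3g also without Mef2d replicate 3 and that of Il7r without Mef2d replicate 1 (adjusted p 0.13 to 0.195).

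The metabolic genes that passed were all higher in Mef2c-labelled libraries, the direction in which 1.5% of all genes tested were called. In glycolysis 2 of 22 passed, Eno3 and Pgam1, a phosphoglycerate mutase at 28.4 ± 0.606 against 23.5 ± 1.15 FPKM (-0.26, SE 0.06, adjusted p 0.0438), whose call was lost with the replicate block (adjusted p 0.0609) and without any one of the 6 libraries. In cholesterol and lipid metabolism 1 of 23 passed, Stard4, a cytosolic sterol carrier at 19.9 ± 2.24 against 10.7 ± 0.377 FPKM (-0.83, SE 0.10, adjusted p 0.000368). Its Mef2c-labelled libraries lay above the 8.07 to 13.5 FPKM of the other deletion groups. In oxidative phosphorylation 0 of 37 passed (limma; 3 at an unadjusted p under 0.05), with Atp5b at 432 ± 23.4 against 399 ± 12.3 FPKM and Cox6a1 at 309 ± 37.3 against 280.2 ± 19.6.

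Ifi44 and Slfn8 were the members of the interferon-stimulated list that passed, in opposite directions, of 30 tested with a median of -0.06. Over all genes tested 2.92% passed. Ifi44l, Xaf1 and Slfn9 were not on that list. The lists for effector Treg (28 tested), cell cycle (36), ribosomal proteins (34), Th1 genes (16), p53 targets and CDK inhibitors (20) and immediate early genes (23) had no call. Together with oxidative phosphorylation they held 194 tests, 0 calls and 21 genes at an unadjusted p under 0.05 (limma). Of these 21, 9 were among the 28 effector Treg genes (32.1%) and 6 among the 23 immediate early genes (26.1%), beside 12.9% of all genes tested. Among their members, the Treg effector gene S100a10 was at 318 ± 34.6 against 358 ± 42.8 FPKM, and the immediate early genes Junb and Btg1 were at 784 ± 129 against 916 ± 100 FPKM and 257 ± 12.6 against 248 ± 9.19. None of the 36 cell cycle genes and none of the 34 ribosomal protein genes on the list reached an unadjusted p under 0.05. Rps3a1 and Rpl30, ribosomal protein genes that passed and are described below with their copies, were not on that list.

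Among markers of gamma-delta and NKT cells, the 3 T cell receptor gamma constant genes tested, Tcrg-C1, Tcrg-C2 and Tcrg-C4, were higher in Mef2c-labelled libraries. Tcrg-C4 was at 19.0, 16.1 and 16.9 FPKM against 9.50, 6.15 and 9.03 (-1.01, SE 0.16, adjusted p 0.0025), Tcrg-C1 at 23.1 ± 3.30 against 12.3 ± 1.59 (-0.86, adjusted p 0.018) and Tcrg-C2 at 19.3 ± 2.26 against 10.2 ± 2.58 (-0.88, adjusted p 0.0162). The summed level of the 8 markers measured was 67.7 to 81.2 FPKM in Mef2c-labelled, 34.5 to 49.7 in Mef2d-labelled and 54.1 to 78.6 in wild-type libraries, so in the sum the Mef2d-labelled libraries were the low ones. In Tcrg-C1 and Tcrg-C2 they also lay below all 9 other deletion libraries. In Tcrg-C4 both groups overlapped those 9, at 8.855 to 17.4 FPKM. Wild type held 9.80 to 11.6 FPKM of Tcrg-C4, below the Mef2c-labelled and above the Mef2d-labelled libraries.

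Among the other markers, Sox13 and Il23r stayed under 0.8 FPKM in all 6 libraries, and Zbtb16 and Blk did not pass. In bulk RNA fewer cells of a type and less RNA per cell cannot be told apart, and the part of such cells in the other differences was not tested. The Tcrg-C4 call held in all 21 alternative fits. The Tcrg-C1 call was lost without Mef2c replicate 1, Mef2c replicate 3 or Mef2d replicate 2 (adjusted p 0.0575, 0.0935 and 0.0983). The Tcrg-C2 call was lost without Mef2c replicate 1, Mef2d replicate 2 or Mef2d replicate 3 (adjusted p 0.068, 0.0802 and 0.0548) and in the 6 libraries alone (adjusted p 0.0548).

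T cell receptor segments were called more often than other gene classes. Of 161 tested, 34 passed (21.1%), with 20 higher in Mef2d-labelled and 14 in Mef2c-labelled libraries, beside 255 of 10359 protein-coding genes (2.46%) and 0 of 177 immunoglobulin segments (limma). Pseudogenes gave 32 of 372 (8.6%). Many of the receptor segments exist as near-identical duplicates, so reads can be split between them. Near-identical pairs with opposite calls were Trav7d-4 and Trav7n-4, Trav7d-3 and Trav7-3, Trav8d-1 and Trav8-1, and Trav9d-1 and Trav9-1. With the replicate block the calls of Trav7d-3 and Trav7n-4 were lost (adjusted p 0.0699 and 0.0662). The Trav7n-4 call was also lost without any one of the 6 libraries, that of Trav7d-3 without Mef2c replicate 2 or 3 or Mef2d replicate 2 or 3, and that of Trav7-3 without Mef2c replicate 1 or 3 or Mef2d replicate 1 (adjusted p 0.0513 to 0.181).

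The largest difference of all was in Rps3a3, a copy of a ribosomal protein gene, and it came with a difference in its parent. Rps3a1, the parent gene of ribosomal protein S3a on chromosome 3, was at 1694, 1730 and 1846 FPKM in Mef2c-labelled libraries and 424, 488 and 460 in Mef2d-labelled ones (-1.94, SE 0.23, adjusted p 0.000285). Its intronless copy Rps3a3 (chromosome 13, 108670603 to 108671397) was at 1.34, 2.82 and 1.71 FPKM against 740.5, 766 and 864, and the copy Rps3a2 (chromosome 14, 88123017 to 88123808) at 2.88, 3.80 and 4.31 against 168, 154 and 162. In the Dyrk1-labelled group Rps3a3 averaged 528 ± 305 FPKM and Rps3a2 112.5 ± 65.65, a wide spread between libraries. In the HDAC1- and HDAC2-labelled groups both averaged under 4 FPKM. Because the sequences are nearly the same, reads of parent and copy may be split between them. The stretch of 90 bases below, bases 582 to 671 of the Rps3a1 reading frame, is shown because it holds the most differences between the 3 genes. Capitals mark positions at which any copy departs from Rps3a1, which are A645T and T668C in Rps3a2 and G582T and A660G in Rps3a3 (parent base, position from 1 at the start codon, copy base), from GENCODE M21 transcripts of mm10.
Rps3a1: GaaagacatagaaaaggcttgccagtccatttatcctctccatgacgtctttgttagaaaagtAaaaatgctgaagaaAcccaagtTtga
Rps3a2: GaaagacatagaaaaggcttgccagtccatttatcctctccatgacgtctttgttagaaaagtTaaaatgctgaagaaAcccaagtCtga
Rps3a3: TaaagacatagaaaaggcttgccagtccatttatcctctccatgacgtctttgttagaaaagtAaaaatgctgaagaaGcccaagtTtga

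Over their aligned length Rps3a2 was 99.5% and Rps3a3 98.9% identical to Rps3a1. The annotated lengths of these 3 genes return whole reads, so their values could be turned into reads and added. Rps3a1 alone went from 1716.3 to 446.7 RPM (reads scaled to a common library depth), while Rps3a3 went from 1.6 to 628.1 and Rps3a2 from 2.9 to 127.7. The sum was 1658.8, 1695.0 and 1808.5 in Mef2c-labelled and 1135.9, 1207.7 and 1263.8 in Mef2d-labelled libraries, a log2 ratio of the means of -0.52. The summed groups did not overlap, and the sum differed far less than any of its members.

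**Figure D3:**
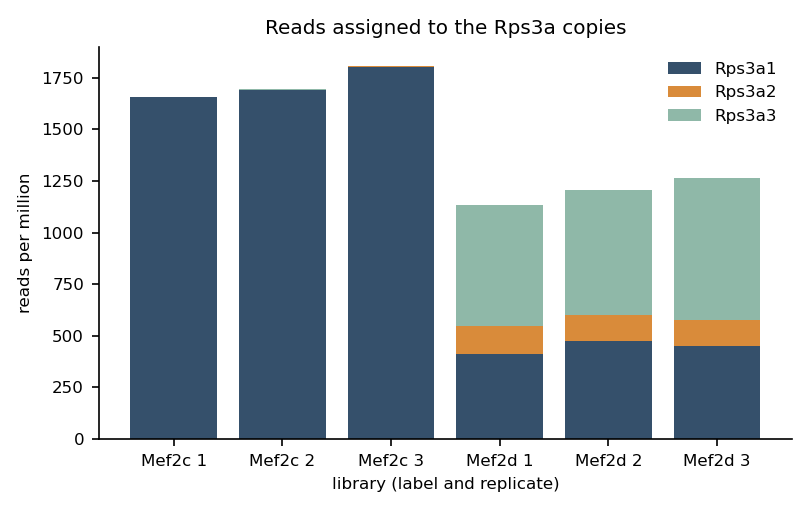
RPM (y axis, reads scaled to a common library depth) assigned to Rps3a1, Rps3a2 and Rps3a3 in each of the 6 libraries (x axis), stacked. The Mef2c-labelled bars are almost wholly Rps3a1 and reach 1658.8 to 1808.5, and the Mef2d-labelled bars divide into all 3 genes and reach 1135.9 to 1263.8.

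Rpl30 showed the same pattern with the labels reversed. The parent gene on chromosome 15 was at 165, 143 and 173 FPKM in Mef2c-labelled and 507, 573 and 545 in Mef2d-labelled libraries (1.75, SE 0.08, adjusted p 3.63e-08). Its pseudogene Gm12191 (chromosome 11, 49678710 to 49679057) was at 1434, 1760 and 1784 FPKM against 17.97, 31.6 and 22.8 (-6.07, SE 0.16), and it averaged 18.6 to 20.3 FPKM in the other deletion groups. Gm12191 is a near-identical copy of Rpl30, so reads may be split between them.

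Other parents and copies parted in the same way. Rnps1, a splicing coactivator, was at 30.1, 29.6 and 31.0 FPKM against 70.4, 73.4 and 78.9 (1.27, SE 0.18, adjusted p 0.0012), and its pseudogene Gm9825 at 29.3 ± 2.20 against 0.324 ± 0.0578. The HDAC2-labelled group also held Gm9825, at a mean of 17.0 FPKM, and had less Rnps1, at 45.5 ± 15.06. Hmga1, a chromatin architectural protein gene, was at 35.1 ± 2.64 against 49.8 ± 1.69 FPKM, and its copy Hmga1b at 14.04, 14.3 and 16.7 FPKM against 0.6001, 1.00 and 4.98 (-2.57, SE 0.35, adjusted p 0.000777). Ncoa4, the ferritin autophagy receptor, was at 9.94 ± 0.628 against 14.3 ± 0.728 FPKM, and its copy Gm6768 at 4.47 ± 0.242 against 0.0932 ± 0.0554. Gm14287, a short copy of the 14-3-3 gene Ywhaz, had the largest difference in favour of Mef2c-labelled libraries, at 108.3 ± 4.29 against 0.268 ± 0.233 FPKM. Its parent Ywhaz did not pass, at 139 against 162 FPKM (0.22). These copies, as well as Gm12191, were picked out after their values were seen.

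Of 334 called genes whose transcripts could be searched, 77 had a copy of at least 95% identity over at least 100 bases and 80% of the shorter transcript, and 17 of these had a copy called the opposite way. Among the 32 called pseudogenes 25 had such a copy. Genes that were not called were not searched, so the share of all tested genes with such a copy is not known. Eif3s6-ps2, at 26.7 ± 4.11 FPKM in Mef2c-labelled libraries and at most 0.203 in Mef2d-labelled ones (-4.69, SE 0.18, adjusted p 2.39e-09), is 96.0% identical to its parent Eif3e, which did not pass at 217 and 202 FPKM. Hist1h2al, a histone H2A sequence annotated as a processed pseudogene, was listed at 0 in all 3 Mef2c-labelled libraries and at 7.16, 6.98 and 6.57 FPKM in Mef2d-labelled ones. No near copy was found by this rule for the other 257 called genes searched, among them Slfn8, Mtmr9, Sfxn2 and Lrrc32. Only the longest transcript of each called gene was searched. Rpl30, Rnps1 and Ncoa4 therefore also fell among the 257, although copies of them are named above. The counts of 77 and 17 thus miss some copies, and a gene without a hit may still have one.

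Called genes lay unevenly along the genome. Chromosome 14 had the highest share, 61 of 529 tested genes (11.5%), followed by chromosomes 8 (5.19%), 17 (5.17%) and 3 (5.1%), and chromosome 10 the lowest, at 0.57%. Without T cell receptor segments chromosome 14 kept 33 of 406 genes (8.13%), beside 2.66% over all chromosomes counted the same way. The 10 windows of 10 Mb with the most calls held 35.2% of the calls and 10.1% of the tested genes, and 92 of 204 windows had none. Those 10 were picked by their calls, so an excess over their share of tested genes follows from the choice. The counts expected if calls were placed at random were not computed. On chromosome 14 the Mef2c-labelled libraries alone lay beyond the 9 other deletion libraries in 46 of the 61 called genes, on chromosome 8 in 24 of 32 and on chromosome 11 in 21 of 26. On chromosome 19 the Mef2d-labelled libraries alone did so in 9 of 17, Sfxn2 among them. The same was not counted over all tested genes of these chromosomes.

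**Figure D4:**
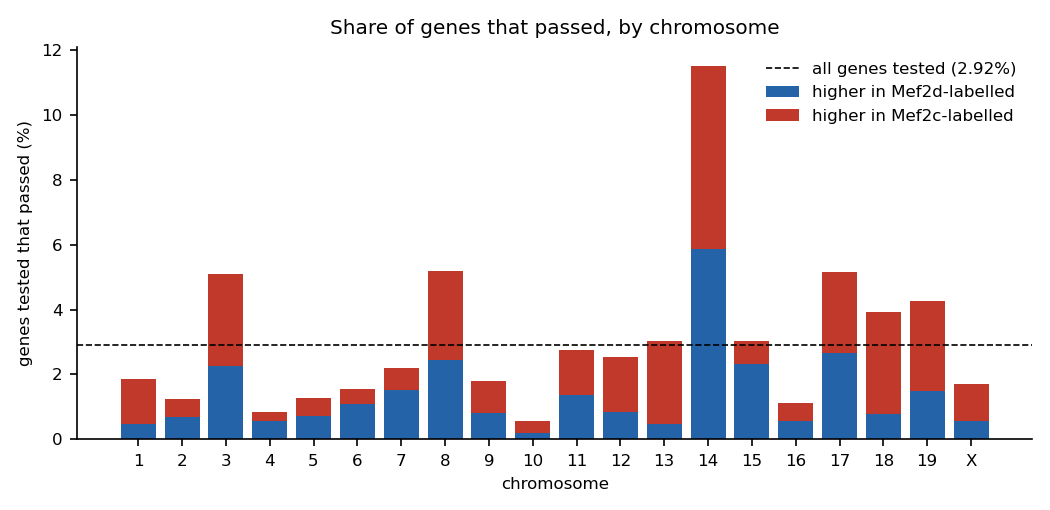
Percentage of tested genes that passed (y axis) on each chromosome (x axis), split into genes higher in Mef2d-labelled (blue) and Mef2c-labelled libraries (red). The dashed line is the 2.92% of all genes tested; chromosome 14 reaches 11.5%.

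Around the targeted genes the picture differed. Within 20 Mb of Mef2d 20 of 274 tested genes passed (7.3%), 9 higher in Mef2d-labelled and 11 in Mef2c-labelled libraries, and within 10 Mb 16 of 191 did (8.38%). Within 20 Mb of Mef2c 2 of 141 passed (1.42%), and within 10 Mb 0 of 50 (limma). Over all genes tested 2.92% passed. Among tested genes of at least 5 FPKM in 3 libraries, 11 passed near Mef2d and 1 near Mef2c, beside 229 of 8431 over all chromosomes. How many genes near each target were tested at that level was not counted, so these 2 counts are not shares. The share near each gene was not compared by a test.

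Near Mef2d, Gucy1a1 and Gucy1b1, the subunits of soluble guanylate cyclase that senses nitric oxide, were neighbours and both lower in Mef2d-labelled libraries. Gucy1a1 was at 4.90, 4.86 and 4.40 FPKM in Mef2c-labelled and 0.591, 0.729 and 0.587 in Mef2d-labelled libraries (-1.81, SE 0.14, adjusted p 5.85e-06), and Gucy1b1 at 2.15 ± 0.197 against 0.789 ± 0.0344 (-0.81, SE 0.12). Cd1d2, a duplicate of the lipid-presenting gene Cd1d1, was at 1.48, 0.969 and 1.45 FPKM against 5.35, 6.72 and 7.24 (1.69, SE 0.21, adjusted p 0.000335). Its 96.4% identical neighbour Cd1d1 did not pass, at 23.4 ± 1.24 against 20.7 ± 0.238 FPKM. Dclk2, a doublecortin-like kinase beside them, was at 2.91, 2.64 and 3.05 FPKM against 7.66, 7.31 and 8.64 (1.20, SE 0.14, adjusted p 0.000308). Rps3a1, described above with its copies, lies in the same 20 Mb.

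The other deletion groups differed from each other in these genes. Gucy1a1 averaged 0.808 ± 0.417 FPKM in the Dyrk1-labelled group, beside 2.68 ± 0.541 and 2.85 ± 0.134 in the HDAC1- and HDAC2-labelled groups. Cd1d2 averaged 4.42 ± 2.09 beside 0.975 ± 0.0478 and 0.927 ± 0.225, and Dclk2 8.13 ± 1.93 beside 3.20 ± 0.617 and 3.48 ± 0.469. Of the 20 genes called near Mef2d, the Dyrk1-labelled mean was nearer to the Mef2d-labelled mean in 16, the HDAC1- and HDAC2-labelled means in 3 each and the wild-type mean in 6. Among the 318 genes called elsewhere the corresponding counts were 222 (69.8%), 221 (69.5%), 215 (67.6%) and 212 (66.7%). The difference between these shares near Mef2d and elsewhere was not tested.

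**Figure D5:**
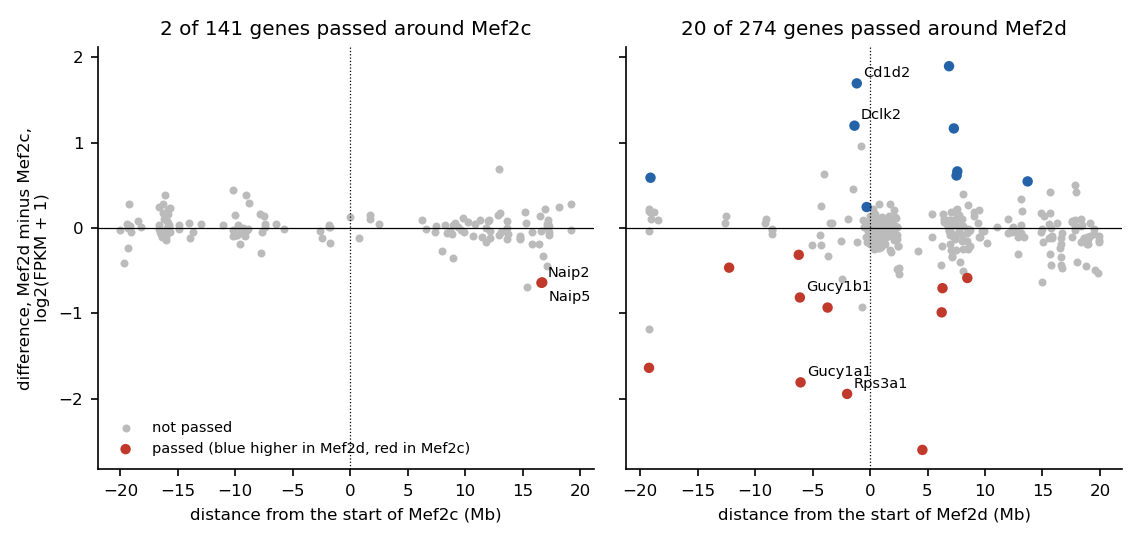
Difference between Mef2d-labelled and Mef2c-labelled libraries (y axis, log2(FPKM + 1)) of tested genes within 20 Mb of Mef2c (left) and Mef2d (right) against distance from the gene's start (x axis, Mb). Grey points did not pass; 2 of 141 genes passed on the left, about 17 Mb away, and 20 of 274 on the right, in both directions.

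The pair called near Mef2c were Naip2 and Naip5, inflammasome sensors for bacterial proteins. Naip5 was at 8.53, 6.93 and 6.75 FPKM in Mef2c-labelled and 5.16, 3.56 and 4.55 in Mef2d-labelled libraries (-0.64, SE 0.14, adjusted p 0.021), and Naip2 at 5.56 ± 0.744 against 3.20 ± 0.408 (-0.64, SE 0.13, adjusted p 0.014). Naip5 is 96.9% identical over the aligned part to Naip6, which did not pass, so reads may be split between them. The calls were lost without Mef2c replicate 1 or Mef2d replicate 3 for both genes, without Mef2c replicate 2 or Mef2d replicate 1 for Naip2 and without Mef2d replicate 2 for Naip5 (adjusted p 0.0539 to 0.105). That of Naip5 was also lost with the replicate block and removal of length and GC trends together (adjusted p 0.0707).

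Promoters were searched for the MEF2 consensus because the compared labels name MEF2 factors. RefSeq promoters of GRCm38.p6, 250 bases before each start, were matched by symbol for 8555 of the 11591 tested genes and read on both strands. The consensus stood in 2.92% of all 32851 promoters. The remaining shares count genes with a match in any of their promoters, so they are not on the same footing. These were 1.75% of tested genes, 2 of 100 genes higher in Mef2d-labelled libraries (2.0%) and 1 of 100 higher in Mef2c-labelled libraries (1.0%). The matching genes, named after their values were seen, were Add3 and the Y-linked demethylase gene Kdm5d in the first set and Naip5 in the second. Add3, which encodes the membrane skeleton protein gamma-adducin, was at 68.9, 70.1 and 63.6 FPKM in Mef2c-labelled and 84.8, 85.2 and 80.5 in Mef2d-labelled libraries (0.30, SE 0.06, adjusted p 0.0108), the latter above all other deletion libraries. Its call was lost without Mef2c replicate 3 or Mef2d replicate 2 (adjusted p 0.0606 and 0.0596), and that of Kdm5d without either of these or Mef2d replicate 3 (adjusted p 0.058 to 0.0893). In the 6 libraries alone the calls of Add3 and Kdm5d were lost too (adjusted p 0.0548 and 0.126), and with the block there that of Kdm5d (adjusted p 0.121). The promoters of Add3 (chr19:53140193-53140442, plus strand) and Naip5 (chr13:100247337-100247586, minus strand) are printed because they are the called autosomal genes with a match, in capitals, which is a description of letters and not of a bound site.
Add3: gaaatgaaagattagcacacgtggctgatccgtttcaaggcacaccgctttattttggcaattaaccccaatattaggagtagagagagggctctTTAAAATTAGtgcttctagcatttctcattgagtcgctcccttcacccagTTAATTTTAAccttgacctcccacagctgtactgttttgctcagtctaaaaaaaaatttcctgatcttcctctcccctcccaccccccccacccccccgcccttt
Naip5: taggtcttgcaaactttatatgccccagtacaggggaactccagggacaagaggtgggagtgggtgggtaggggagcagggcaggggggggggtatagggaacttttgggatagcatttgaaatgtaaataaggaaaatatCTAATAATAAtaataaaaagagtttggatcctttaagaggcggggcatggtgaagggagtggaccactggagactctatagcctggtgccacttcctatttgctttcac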

How the data were processed

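The authors deposited one table of 35275 Ensembl identifiers in 18 libraries, and its values are FPKM. The unit is not named in the table and was read from the values, and RPKM cannot be told apart. Per the submitters' processing notes, STAR, HTSeq and mm10 were used, and versions, strand setting and annotation release are not given in the sources used here. Depth was recovered from the value that 1 read has.

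Values were fitted as log2(FPKM + 1) with limma 3.58.1 in R 4.3.3: a mean per group over the 15 deletion-labelled libraries, wild type left out, variance trend on level, 10 residual degrees of freedom. A gene was tested where 3 or more of the 6 compared libraries reached 1 FPKM, with Benjamini-Hochberg adjustment over all of them. The script was tested on simulated data. Libraries with the same replicate number deviated together (correlations 0.33, 0.41 and 0.35 over genes), so the fit with a replicate block is given where it changes a call.

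Named were the MEF2 and class IIa genes and Foxp3, the 15 largest called differences in each direction at 5 FPKM or more without overlap (clone-like symbols, receptor segments and Y-linked genes left out), up to 6 called members per list or up to 2 others, and up to 4 called genes within 20 Mb of each target. Members and lists were chosen with earlier results of these data known. Copies were found with blastn on GENCODE M21 transcripts. Alternatives covered pseudocount, filter, scaling, the libraries fitted, block, length and GC trends, variance prior and leaving out libraries. One, leaving out Dyrk1 replicate 1, was chosen after seeing the data. A result on 1 gene and 1 pair of sequences that these rules would include are not reported here.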

Additional observations from a re-analysis of the deposited data

How the results depend on the processing

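Over the 21 alternative fits, 49 of the 70 called genes named here passed in every fit that tested them, and none of the 70 changed direction. The 338 calls became 212 (100 higher in Mef2d-labelled, 112 in Mef2c-labelled) without Mef2d replicate 2, the lowest count over the replicates left out, and 335 (155 and 180) without Mef2d replicate 1, the highest. The range was 100 to 180 genes higher in Mef2d-labelled and 112 to 180 higher in Mef2c-labelled libraries, and without Dyrk1 replicate 1 of the spread 377 passed (179 and 198). A filter at 5 FPKM, which tests 8431 genes, left 119 and 110. Near Mef2d the 20 calls became 11 with that filter and 30 with no filter, and near Mef2c the 2 became 1 with that filter or in the 6 libraries alone, 0 in the 10 Mb window, and 0 to 5 with a replicate left out. With a replicate block 299 genes passed, 286 of them shared with the 338, and in the 6 libraries alone with the block 282. The block alone ended the calls of Ikzf4, Cd3g, Pgam1, Trav7d-3 and Trav7n-4 in the 15-library fit and of no other named gene. Together with removal of length and GC trends it also ended those of Izumo1r, Naip5, Trav7d-4 and Trav7-3 (adjusted p 0.0561, 0.0707, 0.0867 and 0.0683), which neither change ended alone. In the 6 libraries alone with the block, the calls of Ccr4, Sh2d1a, Satb1, Kdm5d and Trav7-3 were also lost (adjusted p 0.0849, 0.0656, 0.0728, 0.121 and 0.0543). Those of Satb1 and Kdm5d were lost in the 6 libraries without the block too (adjusted p 0.0583 and 0.126). Directions that turned were all of genes that did not pass: Mef2c at -0.19 and Hdac4 at -0.01 without Mef2d replicate 1 (up to 0.36 and 0.15 without Mef2d replicate 2), and Hdac5 at -0.01 after removal of length and GC trends, with and without the block. The cause of these changes was not tested.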
